A study of Mus musculus with 2 samples.

Results

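The kynurenine route to NAD was followed through 8 mouse genes, Afmid, Kmo, Kynu, Kyat1, Kyat3, Haao, Acmsd and Qprt. Every non-control probe whose accession belonged to 1 of these genes was taken, which gave 12 probes. Kmo, Kynu, Kyat1 and Kyat3 had 2 probes each, and the other 4 genes had 1 each. All 12 probes were well above background, unsaturated and free of outlier marks on both arrays. They were set against 28998 probes and 15975 named genes measured in the same way. The genes were selected on their place in the route with the differences of Kynu and Kyat3 between these same 2 arrays already known, so the differences of members are described and not tested.

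RNA on the TG+STZ array came from diabetic male mice whose label is Sirt1-overexpressing transgenic. Sirt1 encodes a deacetylase that consumes NAD. RNA on the WT+STZ array came from diabetic wild-type males. Both groups had a C57BL/6J strain background, were given streptozotocin, a beta cell toxin, when 8 weeks old (dissolved in citrate buffer of 100 mmol/l), and were 32 weeks old when killed. The RNA came from glomerular regions dissected from the kidney, and each group had 1 array. Which promoter drives the transgene and how many mice lie behind each array are not given in the sources used here. Neither group was free of diabetes.

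The route turns tryptophan into NAD, the coenzyme that sirtuins consume. A dioxygenase opens the ring of tryptophan, AFMID releases kynurenine, and KMO, KYNU and HAAO carry it to an unstable intermediate that closes into quinolinate, from which QPRT makes a precursor of NAD. ACMSD draws the intermediate away towards glutarate and acetyl-CoA, and the aminotransferases KYAT1 and KYAT3 draw kynurenine away to kynurenic acid. Liver and the proximal tubule of the kidney are known sites of NAD synthesis from tryptophan.

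The members differed in both directions. Kynu and Kyat3 were lower on the TG+STZ array, Kyat1 was higher, and Afmid, Kmo, Haao, Acmsd and Qprt were within the error of the scanner software. On the log2 scale the 8 gene differences, TG+STZ minus WT+STZ, had a median of 0.00 and ran from -1.66 to 0.51, with 4 above 0 and 4 below. The median over all 15975 genes was also 0.00, with an SD of 0.26. Of the 8, 2 were lower by 2-fold or more and 0 were higher by 2-fold or more. Among all genes 0.469% were that much lower and 0.52% that much higher. Because these values helped to choose the genes, nothing is read from that contrast. Each difference is taken after subtracting from log2 signal the 75th percentile of the same array, which stood at 2042 intensity units on the TG+STZ array and 1933 on the WT+STZ array. The error printed with a difference is that of the scanner software for 1 hybridisation and does not cover the spread between mice. It was 0.20 for members with 1 probe and 0.14 or 0.15 for those with 2. It thus followed the number of probes and was not a spread measured over repeats. Within or beyond this error marks the size of a difference and is not a test.

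**Figure D1:**
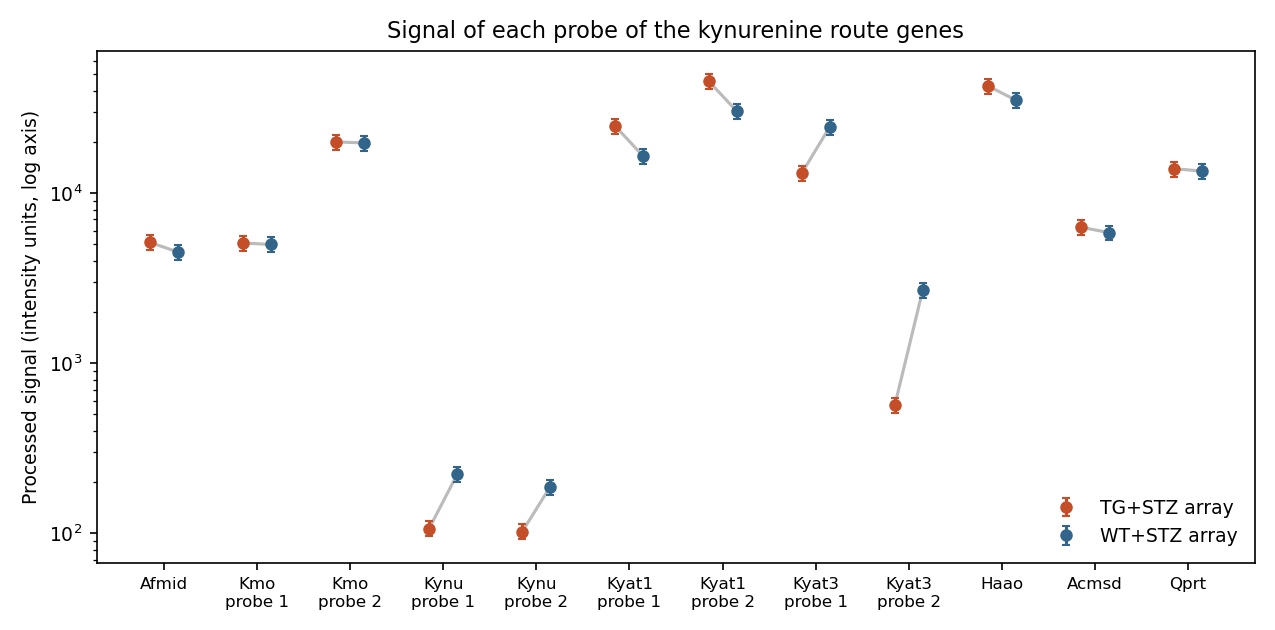
Processed signal of each of the 12 probes (intensity units, log axis) on the TG+STZ array (left point of each pair) and on the WT+STZ array (right point), with the error of the scanner software as bars. Both Kynu probes and both Kyat3 probes were dimmer on the TG+STZ array, and both Kyat1 probes were brighter there.

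The early enzymes each differed by less than the scanner error. Afmid, the formamidase that frees kynurenine, read 5130 intensity units on the TG+STZ array and 4505 on the WT+STZ array. Its log2 difference after scaling was 0.11 ± 0.20. Kmo encodes the FAD-dependent hydroxylase that commits kynurenine to the NAD branch. Its probes read 5092 and 19991 units on the TG+STZ array, against 4984 and 19691 units on the WT+STZ array. The scaled differences were -0.05 and -0.06, and the 2 probes lay 0.01 apart. The gene value was -0.05 ± 0.14, so Kmo differed by less than the scanner error.

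Kynu encodes kynureninase, a vitamin B6-dependent enzyme that cuts the side chain from hydroxykynurenine. It was lower on the TG+STZ array with both probes. The probe A_52_P118560 read 106.8 units on the TG+STZ array and 222 on the WT+STZ array, a log2 difference of -1.13 ± 0.21. The probe A_55_P1965975 read 102 units on the TG+STZ array and 188 on the WT+STZ array, a difference of -0.96 ± 0.21. Their mean was -1.04 ± 0.15, or 2.06-fold lower, and placed Kynu at rank 70 from the lowest of 15975 genes. Both Kynu probes were dim. They lay at the 26.4th and 25.8th percentile of probe brightness on the TG+STZ array and at the 36.7th and 34.6th percentile on the WT+STZ array. As a gene it fell in signal quartile 1, the dimmest, where 1.15% of genes were at least 2-fold lower, against 0.15% in quartile 4. With normexp background correction the Kynu difference was -0.82, and with loess it was -0.99. Of 4153 genes with several measured probes, 0.12% (5 genes, Kynu and Kyat3 among them) had every probe at least as low as the Kynu probe nearer to 0. Kynu was chosen with its difference known, so nothing is read from its rank or this share.

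In bulk RNA, fewer cells of a type and less RNA per cell cannot be told apart. Kynu is also made by white blood cells, so markers of these cells are given beside it. Of 11 measured macrophage and dendritic cell markers, 10 had a difference below 0, as did 7840 of all 15975 genes, but 8 of the 11 were within their scanner error. Their median difference was -0.12, with a range of -0.17 to 0.36. Csf1r, a growth factor receptor of macrophages, was at -0.17 ± 0.12 and Mrc1, a mannose receptor, at 0.36 ± 0.21. Their summed signal was 42418 units on the TG+STZ array and 42756 on the WT+STZ array. All 9 measured B and T lymphocyte markers had a difference below 0, with a median of -0.36. Of the 9, 7 were beyond their error, while 12099 of all 15975 genes were within theirs. The summed signal of the lymphocyte markers before scaling was 5621 units on the TG+STZ array, of which Cd4 gave 3487. On the WT+STZ array the sum was 5967, of which Cd4 gave 3519. Ms4a1, the B cell antigen CD20, was furthest at -0.79, followed by Cd8a at -0.66. Both were dim, in signal quartile 1. Ms4a1 read 59.2 units on the TG+STZ array and 97.2 on the WT+STZ array. Cd8a read 23.0 units on the TG+STZ array and 34.9 on the WT+STZ array. Cd68 and Trac had no named probe, and the dimmest measured marker of these lists, the B cell receptor gene Cd79a, read 17.0 units on the TG+STZ array and 16.5 on the WT+STZ array. The part of these cells in the Kynu value was not tested.

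Kyat3 and Kyat1, both vitamin B6-dependent enzymes that convert kynurenine to kynurenic acid and also act on glutamine and cysteine conjugates, differed in opposite directions. Kyat3 had the lowest difference of the 8 genes. Its probe A_55_P2058122 read 13055 units on the TG+STZ array and 24435 on the WT+STZ array, a difference of -0.98 ± 0.20. Its second probe, A_55_P2092668, read 566 units on the TG+STZ array and 2694 on the WT+STZ array, a difference of -2.33 ± 0.20. The first probe was thus 1.98-fold lower and the second 5.02-fold lower. Both were lower, but by different amounts. The gap of 1.35 between them was matched or exceeded in 0.316% of the 3479 genes with 2 measured probes, whose median gap was 0.08. The gene value of -1.66 ± 0.14 therefore averages 2 unlike values. It stood at rank 22 from the lowest, and Kyat3 was 1 of 6 genes of signal quartile 4 that were at least 2-fold lower. That place in quartile 4 is also an average of both probes. Among probes, the first lay in quartile 4 and was less than 2-fold lower, and the second lay in quartile 3. Of the 4153 genes with several measured probes, 0.0963% (4 genes, Kyat3 among them) had every probe at least as low as the Kyat3 probe nearer to 0. Kyat3 too was chosen with its difference known, so nothing is read from its rank or this share. Both probes carry the same transcript record, and the sources used here do not give where in it each probe lies.

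Kyat1 was higher on the TG+STZ array with both probes. A_55_P2096652 read 24678 units on the TG+STZ array and 16429 on the WT+STZ array. A_66_P115996 read 45510 units on the TG+STZ array and 30394 on the WT+STZ array. Their scaled differences were 0.51 and 0.50, less than 0.01 apart, and the gene value was 0.51 ± 0.14, or 1.42-fold higher. That is under 1.5-fold, a level that 1.75% of all genes and 0.826% of quartile 4 genes reached in this direction. Kyat1 ranked 380 from the highest. Of the 4153 genes with several measured probes, 0.554% (23 genes, Kyat1 among them) had every probe at least as high as the lower Kyat1 probe. The cut-off is the value of Kyat1 itself, so nothing is read from its rank or this share. The Kyat1 difference minus the Kyat3 difference was 2.16 ± 0.20. That error is of the scanner software alone and does not cover the gap of 1.35 between the Kyat3 probes. The 50 measured spots nearest to each Kyat1, Kyat3 and Kynu spot had median differences between -0.02 and 0.04.

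**Figure D2:**
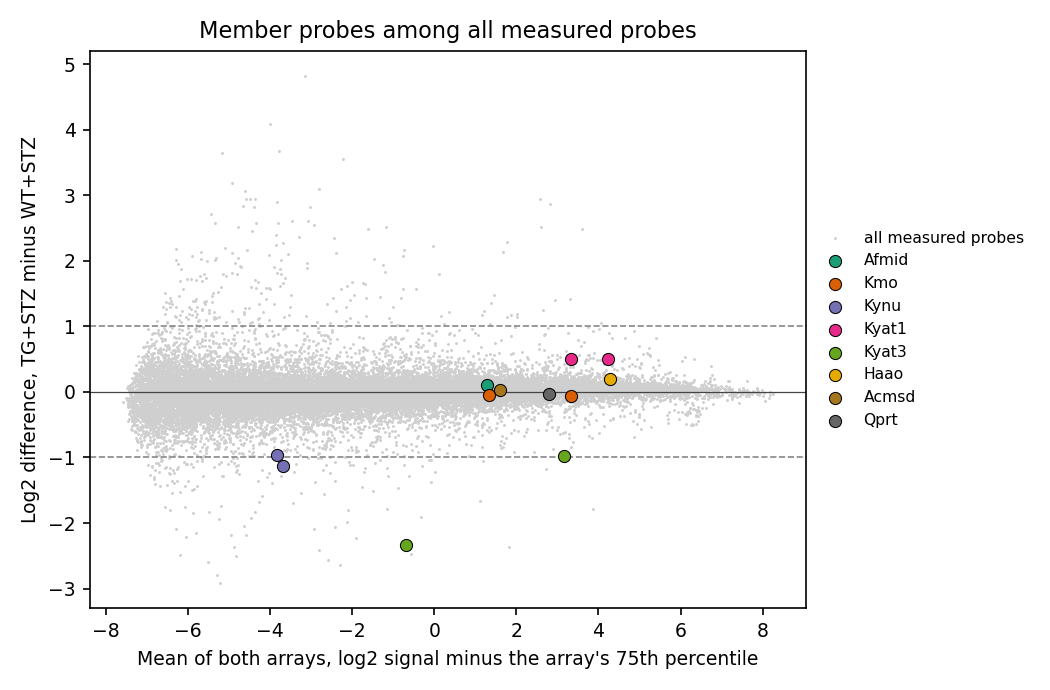
Log2 difference (TG+STZ minus WT+STZ) against mean log2 signal of both arrays after subtracting each array's 75th percentile, for 28998 measured probes (grey) and the 12 member probes (coloured by gene). Dashed lines mark 2-fold. The Kyat3 probes, at -0.98 and -2.33, lie below the cloud of probes of like brightness, the Kynu probes at -1.13 and -0.96 lie in the dim part, and the remaining members apart from Kyat1 lie near 0.

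The promoters of Kyat1 and Kyat3, which differed in opposite directions, were searched for short motifs. These include the core site of the aryl hydrocarbon receptor AHR, which kynurenine and kynurenic acid bind. Whether AHR had a part in either value was not tested. The sequences are those of RefSeq on build GRCm38.p6, from 250 bases before to 50 bases after the gene start, on the strand of the gene. Kyat1 lies at chr2:30205798-30206097 on the minus strand and Kyat3 at chr3:142700798-142701097 on the plus strand. Capitals mark matches, on either strand, to GCGTG, the core of the AHR site, or to CCGCCC, the GC box.
Kyat1: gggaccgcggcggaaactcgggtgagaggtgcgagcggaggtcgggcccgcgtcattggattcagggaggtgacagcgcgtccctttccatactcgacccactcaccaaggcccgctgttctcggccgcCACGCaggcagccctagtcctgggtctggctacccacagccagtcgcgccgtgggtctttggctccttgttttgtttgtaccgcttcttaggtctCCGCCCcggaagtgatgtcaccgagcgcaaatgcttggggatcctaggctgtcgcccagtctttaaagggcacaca
Kyat3: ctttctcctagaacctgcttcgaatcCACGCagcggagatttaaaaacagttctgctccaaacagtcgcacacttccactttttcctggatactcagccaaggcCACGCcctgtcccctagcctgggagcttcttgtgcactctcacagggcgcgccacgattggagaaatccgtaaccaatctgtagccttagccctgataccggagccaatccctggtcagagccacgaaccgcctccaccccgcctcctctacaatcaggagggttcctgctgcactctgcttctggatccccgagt
GCGTG was found once for Kyat1 and at 2 places for Kyat3, and 32.4% of 32851 promoters of the same length hold it. CCGCCC was found once for Kyat1, and 35.7% of promoters hold it. No match overlapped another. TATAAA, the E-box CACGTG and the STAT motif TTCNNNGAA were searched on both strands and were not in either window. They occur in 13.6%, 7.15% and 8.3% of promoters. Kyat1 had 25 CpG dinucleotides in its window and Kyat3 14, against a median of 7 over all promoters. Of the other members, promoters of Kmo, Haao, Qprt, Acmsd and Afmid were in the table, and GCGTG occurred in those of Haao and Acmsd. A match is a description of letters and not a site of binding.

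The late enzymes and the branch enzyme were bright, and each differed by less than its scanner error. Haao, the dioxygenase that opens hydroxyanthranilate, read 42590 units on the TG+STZ array and 35144 on the WT+STZ array. Its difference of 0.198 ± 0.204 was about the size of the error and lay at the 89.6th percentile of all gene differences. Acmsd, the decarboxylase that diverts the intermediate from NAD, read 6299 units on the TG+STZ array and 5852 on the WT+STZ array, a difference of 0.03 ± 0.20. Qprt, which joins quinolinate to phosphoribose, read 13893 units on the TG+STZ array and 13462 on the WT+STZ array, a difference of -0.03 ± 0.20. These 3 genes and Afmid rest on 1 probe each. Of the 8 members, 5 differed by less than their error, as did 12099 of the 15975 genes.

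Proximal tubule markers, from the cells known to hold this route, were measured for 12 of 12 genes. Their median difference was -0.02, with 5 higher and 7 lower. Their summed signal before scaling was 1776809.8 units on the TG+STZ array and 1676723 on the WT+STZ array. The 75th percentile used for scaling was itself 1.06-fold higher on the TG+STZ array. Keg1 was furthest at 0.67 ± 0.20, followed by Slc22a6, an organic anion transporter, at 0.26 ± 0.20. Podocyte markers, from cells of the dissected region, were measured for 8 of 8 genes, 3 higher and 5 lower. Their median was -0.03, and 7 of the 8 were within their scanner error. Nphs1, which encodes nephrin, was furthest from 0 at -0.89 ± 0.20, followed by Podxl at -0.19 ± 0.20. Collecting duct markers had a median of -0.27 (8 of 10 lower), with Slc26a4, an anion exchanger, at -0.63 and Hsd11b2, which inactivates glucocorticoids, at -0.44. Of 8 hepatocyte markers 6 were measured, with a median of -0.08. Alb stood at -0.18 ± 0.20 and Tat at -0.18 ± 0.21. All 4 measured fat cell markers were higher on the TG+STZ array, with Cfd at 4.82 ± 0.22 and Retn at 2.84 ± 0.24. Their sum before scaling was 16949 units on the TG+STZ array and 11617 on the WT+STZ array. Fabp4, at 0.34 ± 0.20, gave 15379 units of the TG+STZ sum and 11503 of the WT+STZ sum. Adipoq, Plin1 and Ucp1 were well above background on the TG+STZ array alone. Proximal tubule markers had a median signal before scaling of 104035 units on the TG+STZ array and 95258 on the WT+STZ array. Podocyte markers had 1320 on the TG+STZ array and 1368 on the WT+STZ array. Signals of different probes are not amounts of RNA, but tubule markers were bright, so member signals are not assigned to the glomerulus. The part of these cells in the member values was not tested.

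The rest of tryptophan and NAD metabolism was read from 7 lists of 39 genes, of which 33 were measured. Of these, 19 were higher and 14 lower on the TG+STZ array, with 0 higher and 1 lower by 2-fold or more and a median of 0.01. Among all genes 0.469% were at least 2-fold lower and 0.52% at least 2-fold higher. Under other scalings the medians of the glutarate branch, of other tryptophan fates and of cofactor supply changed sign, so no direction is given for them.

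Of the dioxygenases that start the route, Ido2 alone was measured. It read 522 units on the TG+STZ array and 483 on the WT+STZ array, a difference of 0.03 ± 0.20. Ido1 read 4.76 units on the TG+STZ array and 4.02 on the WT+STZ array, and Tdo2 read 8.53 units on the TG+STZ array and 5.10 on the WT+STZ array. Neither was well above background on any array, so no difference is given. The transporters that bring tryptophan into cells completed the entry list, which had a median of -0.11 (2 higher and 4 lower). Slc7a5, the light chain of the large neutral amino acid transporter, was lower at -0.45 ± 0.15, from probes at -0.74 and -0.16. Its partner Slc3a2 stood at -0.13 ± 0.20, Slc16a10 at -0.15 ± 0.15 and the apical transporter gene Slc6a19 at 0.08 ± 0.20. Cltrn, which encodes a partner of that transporter, stood at -0.08 ± 0.14.

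Aadat and Got2, the other enzymes able to make kynurenic acid, stood at 0.29 ± 0.20 and -0.02 ± 0.20. Aadat read 699 units on the TG+STZ array and 541 on the WT+STZ array. Of the 4 kynurenine aminotransferases, Kyat3 alone was lower by more than its error, and Kyat1 and Aadat were higher by more than theirs. The 4 genes of the glutarate branch after ACMSD were within error, from -0.08 for Aldh8a1 to 0.08 for Dhtkd1, with Gcdh at 0.06 and Dlst at 0.02. The last steps to NAD were also within error. Nadsyn1, which makes NAD by amidation, stood at 0.18 ± 0.20, Nmnat3 at 0.08, Nmnat1 at 0.03 and Naprt, which brings in nicotinic acid, at 0.03. Nmnat2 was not well above background on any array.

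Other fates of tryptophan gave Il4i1, an amino acid oxidase, at -0.31 ± 0.20, Ddc, a decarboxylase, at -0.17 ± 0.14, Inmt, a methyltransferase, at 0.11 ± 0.20 and Maoa, a monoamine oxidase, at 0.07. Tph1 and Tph2, which start serotonin synthesis, were not well above background on any array.

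Cyp1a1, a cytochrome P450 induced by AHR, was the single list gene past 2-fold. It read 47.5 units on the TG+STZ array and 104.5 on the WT+STZ array, a difference of -1.22 ± 0.22 from 1 dim probe. Under normexp correction it was at -0.74. Cyp1a1 lay in signal quartile 1, where 1.15% of genes were at least 2-fold lower. No other measured gene of the receptor list was past 2-fold. Cyp1a2, of the same list, was not well above background on any array, so no difference is given. Ahr stood at 0.20 ± 0.20, Gpr35, a receptor for kynurenic acid, at -0.16 ± 0.22, and Cyp1b1 at -0.12 ± 0.20. Tiparp, also induced by AHR, stood at 0.01 ± 0.14 and Ahrr at 0.00 ± 0.22. Ahrr and Gpr35 were dim as well, in signal quartile 1.

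The genes that supply the cofactors differed among themselves. Kynureninase and the aminotransferases need pyridoxal phosphate, the active form of vitamin B6, and KMO needs FAD. Pdxk, the kinase of vitamin B6, was lower at -0.35 ± 0.12 over 3 probes. Rfk, which makes the precursor of FAD, stood at 0.31 ± 0.20 and Flad1, which completes FAD, at 0.03 ± 0.14.

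**Figure D3:**
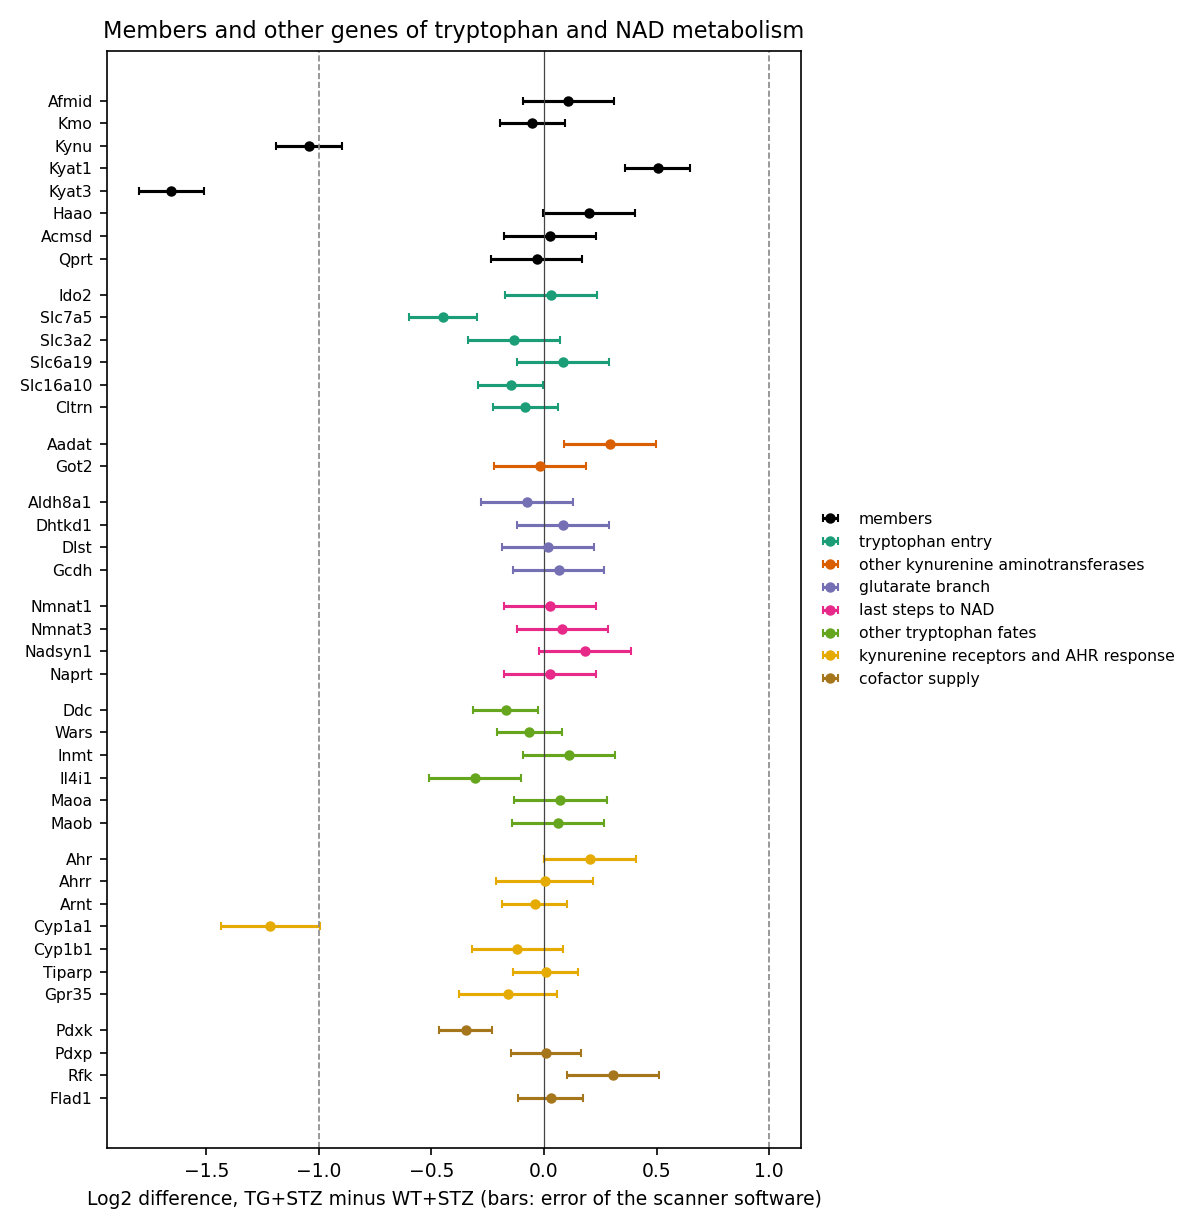
Log2 difference (TG+STZ minus WT+STZ) of the 8 members in the order of the route (black) and of the 33 measured genes of 7 lists (coloured), with the error of the scanner software as bars and dashed lines at 2-fold. Kynu, Kyat3 and Cyp1a1 lie past the line on the low side, and no gene lies past it on the high side.

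The member values changed little with the processing, though the value table, the detection filters and outlier spots kept could not change them. Under 11 other settings Kyat1 stayed between 0.45 and 0.53 and Haao between 0.13 and 0.22. Kyat3 stayed between -1.68 and -1.59 except with the brighter probe alone, where it was -0.98. Acmsd was the single member whose sign changed, to -0.0021 under loess.

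**Figure D4:**
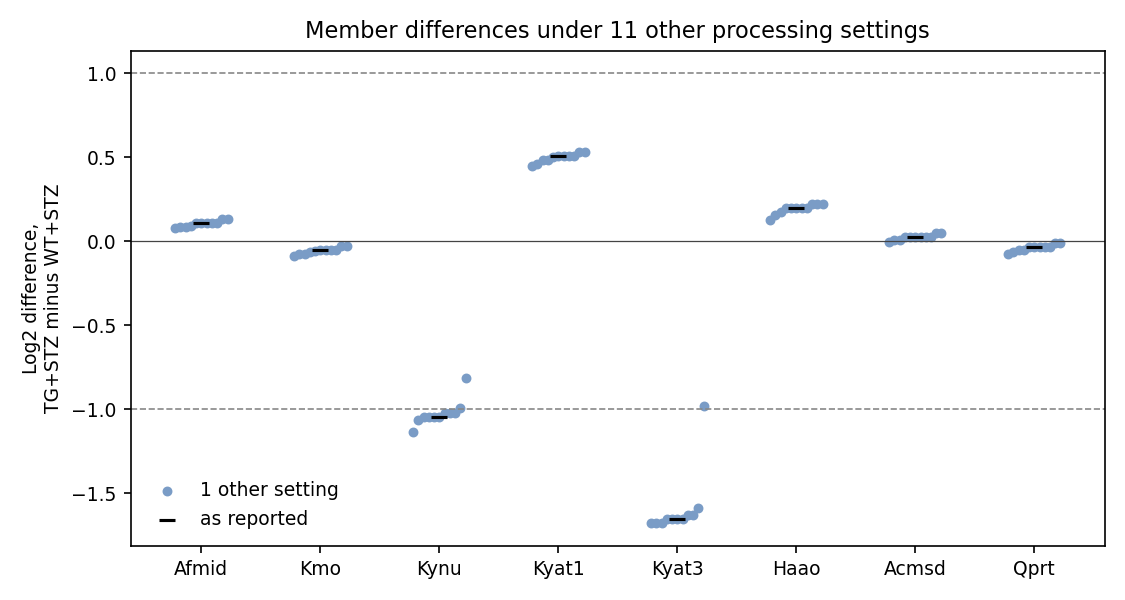
Log2 difference (TG+STZ minus WT+STZ) of each member as reported (black line) and under 11 other processing settings (points, drawn in order of value), with dashed lines at 2-fold. Kyat3 has 1 point apart from the others, at -0.98, and Kynu has 1 at -0.82.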

How the data were processed

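One-colour (Cy3) Agilent arrays of total RNA were used, 1 per group. Per the file headers, the authors' software was Agilent Feature Extraction 10.7.1.1 on a design of build mm9. Version 10.3.1.1 is named in the submitters' processing notes. The deposited intensity is background-subtracted within each array, and the series' value table held equal intensity at all 44397 spots of each array. Control spots and outlier spots were left out. Log2 intensity minus the 75th percentile of non-control spots was averaged over the probes of a gene that were well above background and unsaturated on both arrays. Probes were named by accession through a RefSeq table of GRCm38.p6 (26412 of 39429 probes).

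With 1 array per group no test was possible. Spots of 1 probe had a median SD of 0.03 (245 probes spotted 10 times), and spike-in probes differed by -0.05 to 0.04. The members and lists were chosen with earlier results of these data known. Of each pathway list, genes past 2-fold, up to 4 furthest from 0 and the enzymes of NAD synthesis are named, and of each cell type list the 2 furthest from 0, with the genes beside Kynu and Kyat3 (a few listed genes are not reported here). Further genes (Cltrn, Tiparp, Ahrr, Cyp1a2, Tph1, Tph2, Cd79a, Cd4, Cd68, Trac, Adipoq, Plin1, Ucp1, Fabp4, Spout1, Lrrc8a) were chosen after their values were seen. Alternatives were normexp (offset 50, on spot medians), quantile, loess (span 0.3), 3 other centrings, the value table, 2 detection filters, the brightest probe, outlier spots kept and a 1.5-fold threshold. Centring and averaging over probes were tested on simulated data with the same noise at every brightness. That check does not cover the spread of dim probes or the other steps. Python 3.11.15, numpy 2.4.6, pandas 2.3.3, R 4.3.3 and limma 3.58.1 were used.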

Additional observations from a re-analysis of the deposited data

How the results depend on the processing

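Of 88 member values under 11 alternatives, 86 moved by less than their scanner error. That count includes settings that could not move a member. The value table held the same intensities, and all 12 member probes already passed the detection and outlier filters. The brightest probe setting could not move members with 1 probe. Kynu moved to -0.82 under normexp, whose offset pulls dim signals together, and Kyat3 to -0.98 with the brightest probe of each gene, which leaves out its lower probe. Members at least 2-fold lower therefore numbered 1 under normexp, 1 with the brightest probe and 1 under loess, where Kynu stood at -0.99. The 1.5-fold threshold left the member counts at 2 lower and 0 higher. Of 77 list medians, 76 moved by less than their error, and that of cofactor supply moved to -0.08 under normexp, against 0.02 as reported. Over all genes, those at least 2-fold lower numbered 75 and those at least 2-fold higher 83. These counts were 29 and 36 under normexp, 217 and 202 with the laxer detection flag, 323 and 295 with no filter on dim probes, and 305 and 280 at 1.5-fold. Dim probes such as those of Kynu and Cyp1a1 are limited by signal over background. No paired analysis was possible because each group has 1 array.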

Other observations

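The measured genes directly beside the members on the chromosomes, in the order of the RefSeq table, were 16 in number, 1 on each side of every member. Their differences had a median of 0.05 and ran from -0.35 to 0.16. Beside Kyat3 on chromosome 3, the interferon-inducible GTPase gene Gbp2 stood at 0.13 ± 0.20 and the transcription factor gene Gtf2b at 0.11 ± 0.20. Beside Kynu on chromosome 2, Ppp6c, a phosphatase subunit, stood at 0.05 ± 0.20 and Arhgap15 at 0.15 ± 0.20. The genes next to Kyat1, Spout1 and Lrrc8a, stood at 0.01 ± 0.20 and 0.02 ± 0.14.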
